A study of Mus musculus with 10 samples.

Results

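Igf2r and Airn are overlapping imprinted genes on mouse chromosome 17. The part described here comprises the CpG cytosines of the deposited count table that lie at chr17:12680000-12870000 (mm10), chosen by position alone. There were 270 such cytosines among the 2391795 of the whole table, 149 of them plus strand and 121 minus strand, and all 270 lay inside Igf2r, Airn or both. DNA methylation was measured by reduced representation bisulfite sequencing, in which CpG-rich fragments are selected and unmethylated cytosines are converted, in 10 whole mouse embryos at embryonic day 7.5. Of these, 5 were labelled arsenic and 5 were labelled control; strain, sex, dose, timing and route of arsenic are not given in the labels used here. The count table numbers its libraries from 1 to 10 and ties none of them to an embryo or a group. Arsenic and control embryos were therefore not compared, and every value below describes the 10 libraries with the groups mixed. Whole embryos mix cell types, and the counts do not tell the maternal copy of the locus from the paternal one.

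Igf2r encodes a receptor that carries mannose 6-phosphate-tagged enzymes to lysosomes and removes the growth factor IGF2 from the cell surface. In the mouse it is expressed mainly from the maternal copy. Airn is a long noncoding RNA that starts inside an Igf2r intron, runs in the opposite direction across the Igf2r promoter and silences Igf2r on the paternal copy. The maternal copy carries methylation over the Airn start, placed in the oocyte, and does not make Airn. The Igf2r promoter on the silent paternal copy is known to become methylated later in development. In the RefSeq annotation of GRCm38.p6, which uses the coordinates of mm10, Igf2r spans chr17:12682406-12769706 on the minus strand and Airn spans chr17:12741311-12859884 on the plus strand. The Airn start thus lies 28395 bp inside Igf2r. The last part of Airn also overlaps Mas1 (chr17:12838841-12868150, minus strand), which encodes a receptor for an angiotensin peptide. Exons, introns and UTRs were not annotated here.

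The starts of these genes differ in sequence. The 250 bases upstream of each start are shown, from RefSeq (GRCm38.p6), because the table holds cytosines upstream of one start and none upstream of the other; capitals mark CpG dinucleotides with at least 1 measured cytosine.
Igf2r, chr17:12769707-12769956, minus strand: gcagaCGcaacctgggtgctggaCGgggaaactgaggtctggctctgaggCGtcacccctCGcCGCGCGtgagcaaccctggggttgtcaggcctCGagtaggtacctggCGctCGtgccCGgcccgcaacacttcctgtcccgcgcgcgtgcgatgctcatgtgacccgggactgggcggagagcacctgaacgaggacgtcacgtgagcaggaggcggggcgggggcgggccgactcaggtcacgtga
Airn, chr17:12741061-12741310, plus strand: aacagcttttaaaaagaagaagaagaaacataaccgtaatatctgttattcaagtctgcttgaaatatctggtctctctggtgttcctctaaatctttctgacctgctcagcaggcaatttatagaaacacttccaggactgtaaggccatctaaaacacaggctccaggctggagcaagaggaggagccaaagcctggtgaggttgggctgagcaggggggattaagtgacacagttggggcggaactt

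The Igf2r sequence held 27 CpGs and had a GC content of 69.2%. Of those CpGs, 11 were measured, at 21 cytosines, with a pooled level of 17.8%. The Airn sequence held 2 CpGs, had a GC content of 45.6% and had no measured cytosine. Among 32817 promoter sequences of that length in the same table the median was 6 CpGs; 8.57% held 27 or more and 29.1% held 2 or fewer. The motif CCGG, which reads the same on both strands, occurred 2 times in the Igf2r sequence and 0 times in the Airn sequence, and 47.0% of all promoter sequences held it. The restriction enzyme used is not given in the labels.

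The methylation level of a cytosine is its methylated reads over its coverage, and the level of a region is the mean over its cytosines. Pooled levels sum the reads of the 10 libraries at each cytosine first. The locus fell into parts with separate levels: about 80% in the stretch of Igf2r that Airn does not overlap, near 50% at the start of Airn and in the stretch of Airn beyond Igf2r, and under 20% at the start of Igf2r. In each of the 10 libraries Igf2r alone was above the Airn start and Airn alone, and the Igf2r start was below both.

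**Figure D1:**
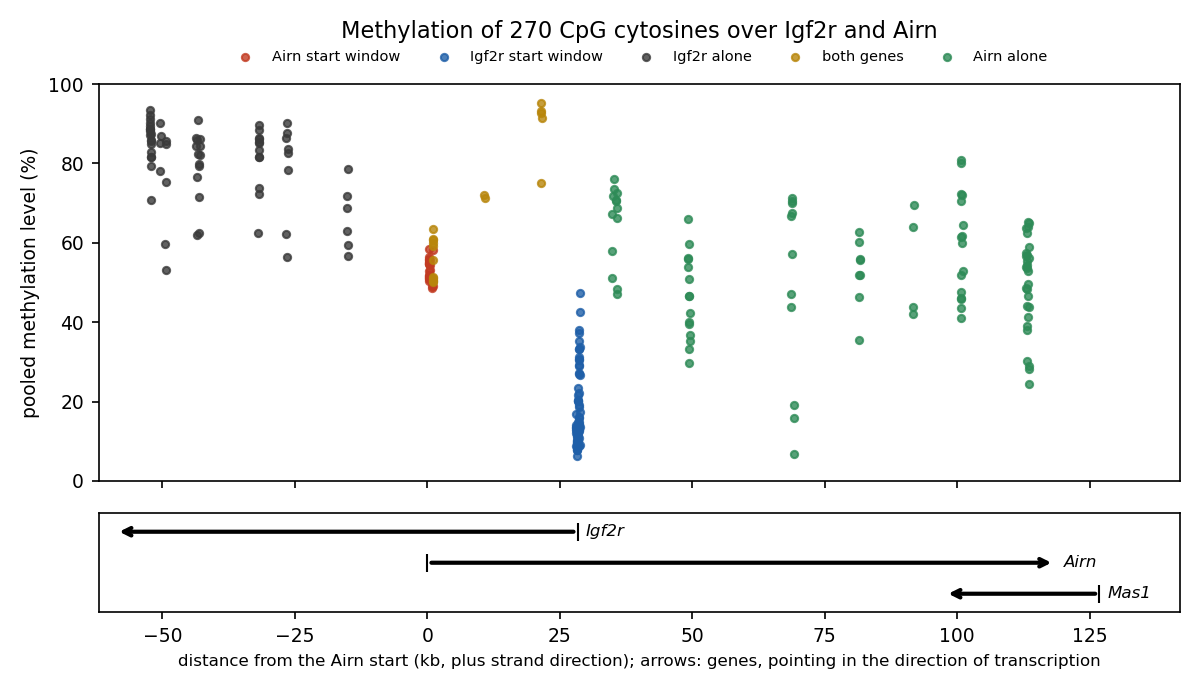
Pooled methylation level (%) of the 270 CpG cytosines against distance from the Airn start in kb, coloured by part, with the genes drawn below as arrows that point in the direction of transcription. Levels in Igf2r alone averaged 80.1%, the Airn start window 53.3%, the Igf2r start window 18.1% and Airn alone 53.2%.

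The Airn start, where maternal methylation marks the imprint, was near the middle of the scale. Within 1000 bp of the start, 23 cytosines were measured (chr17:12741590-12742307), and their pooled level was 53.3%. Over the libraries the lowest level was 46.2% in library 9, the median 54.0% and the highest 59.4% in library 2. The 10 libraries thus lay within 13.2 points of each other, and each was between 35 and 65%. The 14965 reads summed over these cytosines and libraries were 52.6% methylated, with a 95% Wilson interval of 51.8% to 53.4%; this interval covers counting error only and is too narrow, because a read counts at each CpG that it spans.

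The individual cytosines at the Airn start were alike. They ran from 48.5% at position 12742245 (plus strand, 1062 reads) to 58.4% at position 12741590 (plus strand, 368 reads). All measured cytosines lay downstream of the annotated start, in a first block 279 to 439 bp and a second block 925 to 1066 bp after it. The second block crosses the 1000 bp limit, with 58.3% at the outermost cytosine inside it (position 12742307, minus strand) and 51.2% at the nearest outside it (position 12742324, plus strand). With both blocks whole, 34 cytosines had a pooled level of 54.1%, and all 34 were between 35 and 65%. The first block was at 53.9% over 18 cytosines and the second at 54.3% over 16.

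Pooled levels differed between the strands within these blocks, in opposite directions, but the differences varied widely over the libraries. In the first block, the 8 CpGs read on both strands had a mean level of 51.7% on the minus strand and 55.3% on the plus strand. The minus strand was higher at 0 of the 8 and in 2 of 10 libraries, with differences over the libraries of -25.8 to 17.8 points. In the second block, the 6 such CpGs had 59.8% on the minus strand and 50.4% on the plus strand, and the minus strand was higher at 6 of 6 CpGs and in 8 of 10 libraries, with differences over the libraries of -14.1 to 27.6 points. In both blocks the difference between strands is thus smaller than its own spread over libraries. CpGs of a block can lie on the same reads, so the counts of CpGs are not independent. Read numbers differed too: the median coverage per library in the second block was 24 on the minus strand and 106 on the plus strand.

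Coverage at the Airn start moved in steps. In the first block the plus strand had 368 and 370 reads at its first 2 cytosines and 722 to 739 at the other 7. The minus strand had 308 to 314 reads at 3 cytosines and 609 to 616 at 6. At the deeper cytosines the methylated and unmethylated counts of a library were both even in 41 of 70 cases for the plus strand and in 37 of 60 for the minus strand. At the shallower ones they were both even in 5 of 20 cases for the plus strand and in 7 of 30 for the minus strand. Over the whole interval both counts were even in 32.4% of cases, and over all autosomal cytosines of 30 to 70% in 34.7%. Whether the overlap of paired reads was counted in both reads is not given in the sources used here, and its part in these numbers was not tested. The levels of the deeper and shallower cytosines were 55.1% and 57.5% on the plus strand, and 51.2% and 53.9% on the minus strand.

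**Figure D2:**
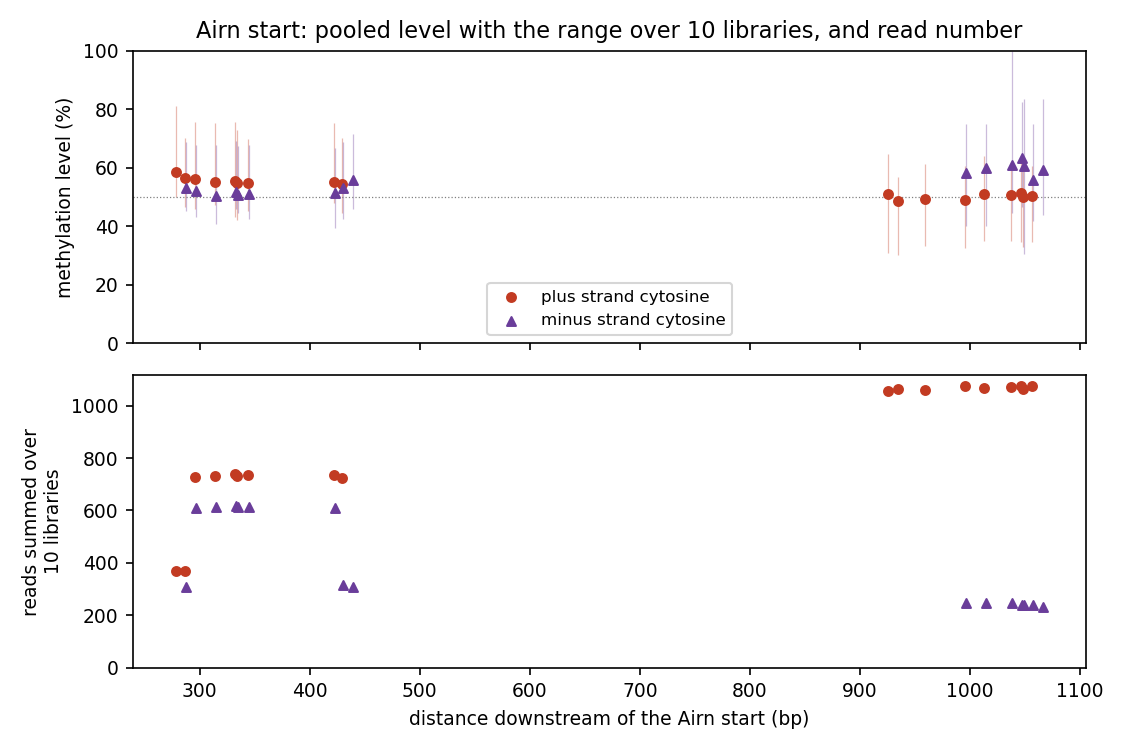
Cytosines near the Airn start by distance downstream of it (bp). The upper panel gives the pooled methylation level (%) as points with the range over 10 libraries as lines, the lower panel the reads summed over 10 libraries. All pooled levels lie between 48.5% and 63.4%, while read numbers step between blocks and strands.

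The Igf2r start was lowly methylated but not unmethylated. Within 1000 bp of it 67 cytosines were measured (chr17:12769359-12770121), with a pooled level of 18.1%. Over the libraries the lowest level was 11.8% in library 3, the median 17.8% and the highest 21.2% in library 6. Every library was lower here than at the Airn start. The Airn start exceeded the Igf2r start by 28.0 points in library 10, where the difference was smallest, by a median of 37.5 points, and by 43.1 points in library 3, where it was largest. Of the 67 cytosines, 45 were under 20% and 5 between 35 and 65%. With a coverage of at least 20 in every library the level was 10.9%, because the 22 cytosines then kept all lie inside the gene.

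Pooled levels at the Igf2r start were lowest inside the gene and highest far upstream. The 29 cytosines inside the gene, up to 347 bp from the start and all on the plus strand, had a pooled level of 11.4%, and all 29 were under 20%. The 17 cytosines 1 to 200 bp upstream were at 16.1%, and the 21 cytosines further upstream, out to 415 bp, were at 29.1%. The nearer upstream cytosines were not above those inside the gene in every library. They were lower in library 1 (18.4% against 19.7%), library 2 (13.6% against 15.9%) and library 9 (9.49% against 14.1%), and higher in the others. Over the libraries the far upstream cytosines ranged from 19.6% (library 3) to 38.9% (library 4) with a median of 27.9%. The cytosines inside the gene ranged from 4.18% (library 4) to 19.7% (library 1) with a median of 9.27%. These ranges touch, but within each of the 10 libraries the far upstream level was the higher one, by 4.82 points in library 1 and up to 34.7 points in library 4, with a median of 16.3 points. The division at 200 bp was chosen after the levels were seen, so the difference is a description.

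**Figure D3:**
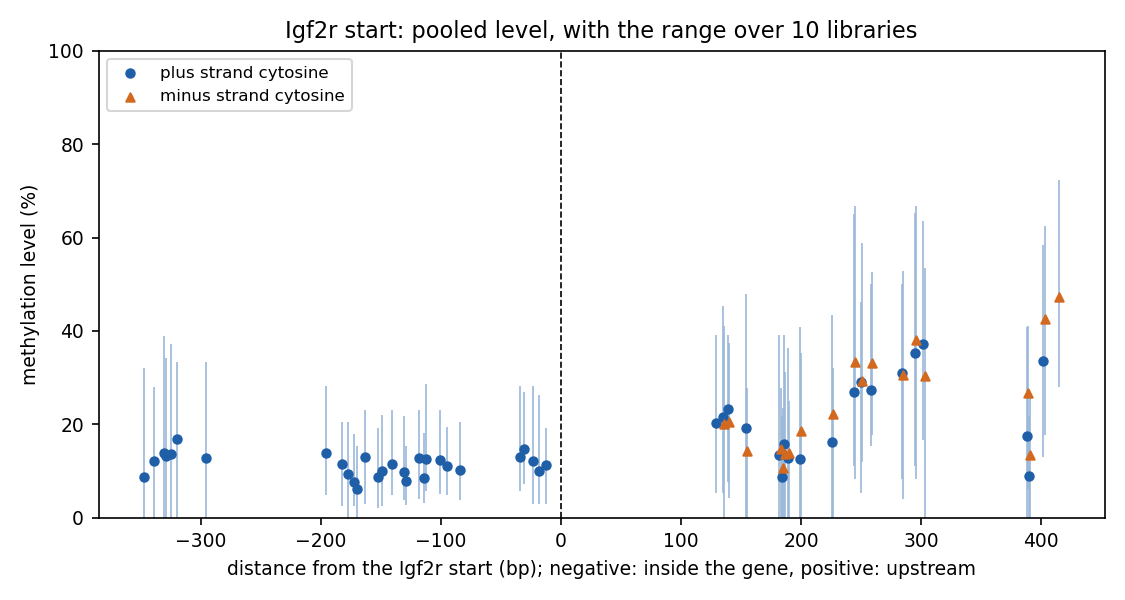
Methylation level (%) of the 67 cytosines at the Igf2r start against distance from it (bp, negative inside the gene, positive upstream). Points give the pooled level and lines the range over 10 libraries. Cytosines inside the gene stay between 6.23% and 16.9%, and upstream cytosines reach 47.3%.

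The lowest cytosine of the Igf2r start was 170 bp inside the gene (position 12769536, 6.23%, range 0% to 15.4% over the libraries). The highest was the outermost one, 415 bp upstream (position 12770121, minus strand), at 47.3%, with 28.0% to 72.2% over the libraries. Its 186 reads in all give a Wilson interval of 40.3% to 54.5%. The next measured cytosine in that direction lay 6430 bp upstream of the start and was at 67.2%, so the window limit cut through no block. The rise was not even. The CpG at position 12770096 was at 11.2% over its 2 strands, while its neighbours at 12770094 and 12770108 were at 22.1% and 38.1%. Upstream depth was low, with a median coverage of 18 reads per library against 39 inside the gene.

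The body of Igf2r before Airn begins was heavily methylated. In the stretch that belongs to Igf2r alone (chr17:12689024-12726415), 67 cytosines had a pooled level of 80.1%. The lowest library was at 77.0% (library 1), the median at 79.7% and the highest at 84.1% (library 2). Of the 67 cytosines, 43 were over 80% and none was under 20%, and they ran from 53.2% at position 12692034 to 93.5% at position 12689080. Taken as 6 stretches separated by gaps of over 1000 bp, levels went from 86.1% in the stretch nearest the 3' end of Igf2r (18 cytosines, chr17:12689024-12689227) through 77.6%, 79.6%, 81.4% and 78.5% to 66.4% in the stretch nearest the Airn start (6 cytosines, chr17:12726190-12726415). Among 10325 autosomal gene bodies with at least 20 measured cytosines, each taken over 1000 bp from its own start, the median level was 55.9%. The middle 50% lay between 40.1% and 67.0%, and 95.2% of the bodies were lower than Igf2r alone. Each of these bodies was a whole gene, with any starts of other genes inside it. Igf2r alone is a part of its gene without the Airn start, so the 2 are not measured alike.

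Between the Airn and Igf2r starts, where both genes are present, coverage was sparse. Over 2000 bp from the Airn start there were 7 cytosines, with a pooled level of 84.4% (81.0% to 90.3% over the libraries, median 83.9%). The first 2 of them, from 10628 bp downstream of the Airn start on (chr17:12751939-12752181), were at 71.8%. The other 5, from 21376 bp downstream on (chr17:12762687-12763013), were at 89.5%, and one of these, position 12762696, was the highest cytosine of the locus at 95.3%. The mean of these 7 cytosines was 1.27 to 9.13 points above the level of Igf2r alone over the 10 libraries. That excess comes from the 5 cytosines nearer the Igf2r start, since the first 2 were below the pooled 80.1% of Igf2r alone.

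Beyond the Igf2r start, where Airn runs alone, levels were intermediate. In chr17:12776136-12854888, 95 cytosines had a pooled level of 53.2%, with 47.9% in the lowest library (library 1), a median of 53.3% and 56.6% in the highest (library 3). Of the 95, 64 were between 35 and 65%, 2 were over 80% and 3 were under 20%. In 7 stretches with gaps of over 1000 bp between them, levels ran from 46.2% (15 cytosines, chr17:12790520-12790875) to 64.8% in the stretch nearest the Igf2r start (13 cytosines, chr17:12776136-12777148). The part that overlaps Mas1 was at 53.2% over 44 cytosines and the part before it at 53.1% over 51.

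The Igf2r and Airn stretches on either side did not overlap between libraries. Igf2r alone was 22.8 points (library 3) to 32.2 points (library 4) above Airn alone, with a median of 26.3 points, and was higher in 10 of 10 libraries. The Airn start and Airn alone, on the other hand, could not be ordered: the start was higher in 6 of 10 libraries, and the differences ran from -6.90 to 7.74 points. Among gene bodies, 43.3% were lower than Airn alone. The level of Airn alone was thus close to the middle of that distribution. Those bodies are whole genes, however, while Airn alone is a part of its gene that leaves out the low Igf2r start.

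**Figure D4:**
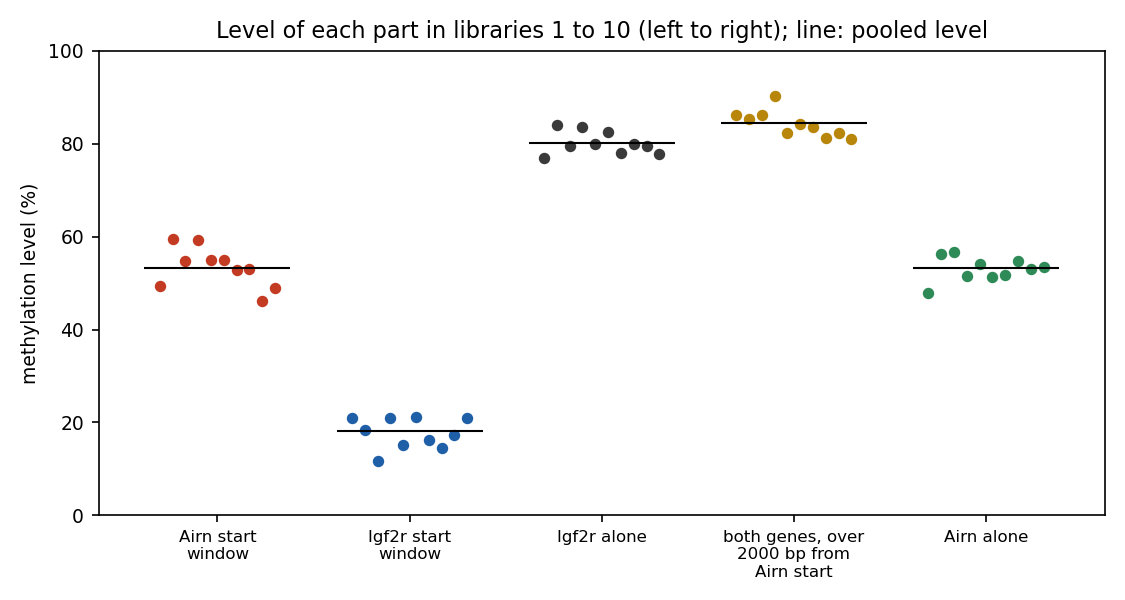
Methylation level (%) of 5 parts of the locus in libraries 1 to 10, plotted from left to right within each part, with the pooled level as a line. The Igf2r start window (11.8% to 21.2%) and Igf2r alone (77.0% to 84.1%) overlap with no other part shown, except that Igf2r alone overlaps the 7 cytosines shared by both genes over 2000 bp from the Airn start, and the Airn start window and Airn alone overlap each other.

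To set the starts against other genes, levels within 1000 bp of the start of 14181 autosomal genes with at least 3 measured cytosines were computed, which gave 13024 distinct windows with a median level of 4.25%. Of these windows, 86.5% were lower than the Airn start and 70.03% lower than the Igf2r start. Windows differ in the number of measured cytosines, which depends on read depth as well as on CpG density. Each start was therefore also set beside windows with a number of measured cytosines within 20% of its own. Of 1503 windows with 19 to 27 cytosines, 88.4% were lower than Airn, their median was 4.93%, and 16.03% lay between 35 and 65%. Of 2146 windows with 54 to 80 cytosines, 96.0% were lower than Igf2r, their median was 1.77%, and 76.5% were under 5%. A level near 50% was thus not particular to Airn. The level of Igf2r, though low on the whole scale, was high for a start with about as many measured cytosines.

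**Figure D5:**
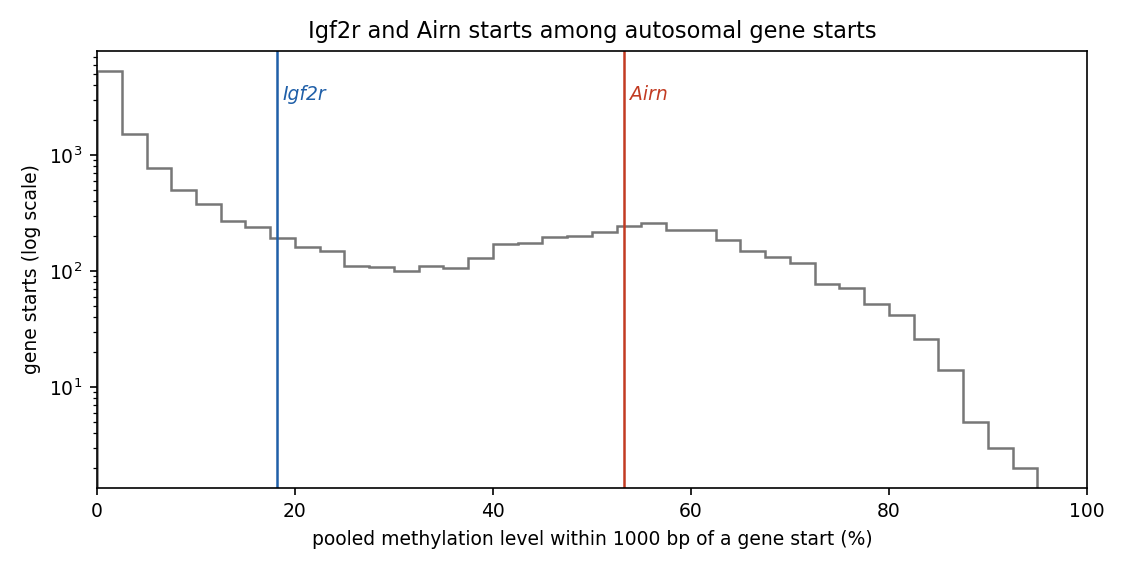
Number of autosomal gene start windows (log scale) by pooled methylation level within 1000 bp of the start (%), in bins of 2.5 points, with lines at Airn (53.3%) and Igf2r (18.1%). Most windows lie under 5%, and a broad shoulder surrounds Airn.

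Other starts that are known to carry maternal methylation had levels that overlapped those of the Airn start. Of 7 genes on this list, 6 had at least 3 measured cytosines within 1000 bp of the start. Nnat, a gene of brain and endocrine cells, was at 62.7% (50.7% to 73.3% over the libraries) and Plagl1, a zinc finger transcription factor, at 51.5% (44.4% to 67.7%). Snurf was at 51.0% (43.1% to 60.3%) and Mest at 44.6% (31.4% to 60.9%). Kcnq1ot1, which like Airn is a noncoding RNA that silences genes in cis, was at 41.1% (27.3% to 58.4%), and Peg3 at 39.6% (22.3% to 53.6%). The Airn range of 46.2% to 59.4% overlapped with that of each of the 6 genes. Peg10 had under 3 measured cytosines.

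Neighbours in the imprinted cluster and genes of IGF signalling were unlike one another. Slc22a3, an organic cation transporter gene that Airn also silences in the placenta, was at 14.8% at its start (10.96% to 17.4% over the libraries, 37 cytosines). Slc22a2, a related transporter gene, was at 60.7% (54.7% to 67.8%, 22 cytosines). Mas1 and Plg had under 3 measured cytosines. Igf1r, the receptor through which IGF2 signals, was at 0.936% (0.552% to 1.30%) over 145 cytosines, so every library was lower there than at the Igf2r start. Igf2, the ligand that Igf2r removes and itself an imprinted gene, was at 46.2% over only 3 cytosines (31.4% to 57.9%). Igf1, Insr and M6pr had under 3.

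Differences between libraries at single cytosines were about as frequent at the locus as in the rest of the table. The counts of the 10 libraries were compared by a chi-square test at every autosomal cytosine with a pooled level of 5 to 95%, with Benjamini-Hochberg adjustment over all 1755343 of them. It asks whether libraries differ beyond read counting, not whether the study's groups differ. At an adjusted p under 0.05 it called 57 of the 269 tested cytosines of the locus (21.2%), near the background of 25.4% over the table. By part, it called 4 of 23 at the Airn start, 22 of 67 at the Igf2r start, 16 of 67 in Igf2r alone, 7 of 17 in the other cytosines shared by both genes and 8 of 95 in Airn alone. All 4 calls at the Airn start and all 7 in the shared cytosines lay in the second block after the Airn start. CpGs of that block can lie on the same reads. Without library 9 the calls in these parts were 1 of 23 and 1 of 18 (background 22.7%). The smallest adjusted p was 0.00014, at position 12689163 in Igf2r alone, where libraries ran from 68.0% to 100%. When the statistic was halved, to allow for DNA fragments counted by both mates, it called 0 of 269, against a background of 0.0867%. Of the 269, 6 had an unadjusted p under 0.05. Halving is the extreme setting for counting by both mates, in which every fragment is counted 2 times at every cytosine. How many fragments were so counted was not tested, so the 0 is a strict lower limit.

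Across libraries, the level of the Airn start and of the gene bodies followed the mean level of all autosomal cytosines, which ran from 40.3% to 42.8%. Over the 10 libraries Pearson's r was 0.749 for the Airn start (permutation p = 0.0152, adjusted over 3 relations 0.0228; Spearman's rho 0.661, permutation p = 0.0438, adjusted 0.0657). For the bodies of both genes outside the start windows, r was 0.830 (permutation p = 0.0038, adjusted 0.0114; rho 0.697, permutation p = 0.031, adjusted 0.0657). These bodies hold the part of the second block over 1000 bp from the Airn start, so they are not fully separate from the Airn start. For the Igf2r start r was 0.127 (permutation p = 0.719; rho 0.115, permutation p = 0.757). Without libraries 1 and 9, the farthest from the median autosomal level, r was 0.516 for the Airn start (exact permutation p = 0.187) and 0.695 for the bodies (exact permutation p = 0.0546), so both relations rest in part on these 2 libraries. For the Igf2r start r without them was 0.482 (exact permutation p = 0.236).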

How the data were processed

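The authors deposited read counts per CpG cytosine and strand, which per the file headers are the coverage and the methylated and unmethylated reads of 10 libraries. The counts are not normalized. Per the submitters' processing notes, Trim Galore, Bismark and methylKit were used with the mm10 build; for versions, settings, deduplication and overlapping mates, the sources used here give nothing. Methylated and unmethylated counts summed to the coverage everywhere, and coverage was at least 10 in every library, which removes any cytosine with few reads in 1 library. Coverage summed over cytosines was 94583116 to 127102232 reads per library. Since the 30 columns carry library numbers that match no label, the planned test between groups was not run.

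Gene bounds came from RefSeq (GRCm38.p6), and strands from its promoter table; at the Igf2r promoter 27 of 27 measured cytosines fell on a C of that sequence. Genes, lists and windows were chosen with earlier results of these data known. Named cytosines are the extremes of each part and those at window limits; named genes are fixed lists, with at least 3 cytosines required; 1 listed gene is not reported here. Levels were computed with numpy 2.4.6 and pandas 2.3.3, and tests with SciPy 1.17.1 (100000 permutations); the chi-square test was tested on simulated data. Alternatives were start windows of 500 and 2000 bp, a coverage minimum of 20, read weighting, single strands, leaving out libraries and, chosen after seeing the data, cytosines with both counts even in at most 2 libraries.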

Additional observations from a re-analysis of the deposited data

Results flagged for a closer look

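Library 1 stood apart in Airn alone before Mas1 begins, at 44.9%, below the other 9 libraries at 51.2% to 56.7%. The low level was uneven over this part. In the stretch of 15 cytosines at chr17:12790520-12790875 library 1 was at 26.1%, and the next lowest, library 7, at 43.3%. Library 1 was also lowest at chr17:12832940-12833137 (48.9%). Libraries 6 and 4 were lowest at chr17:12809879-12810563 and chr17:12822718-12822969. In the stretch nearest the Igf2r start, library 1 was at 64.99%, above the median of 64.1%. Library 1 was picked out because its gap to the nearest library over the whole part was large relative to the whole range (Dixon's criterion). In all, 18 sets of 10 library values were examined in this way, and chance alone picks out about 1 set in 20. Library 1 also had the lowest mean autosomal level of the 10 libraries, 40.3%. The cause was not tested.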

How the results depend on the processing

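The Airn start stayed at 52.6% to 54.1% under the 6 other settings of window, depth, weighting and strand, and was at 54.2% over the 3 of its 23 cytosines with both counts even in at most 2 libraries. Differences were recomputed only for the Airn start minus the Igf2r start (35.1 points on pooled levels) and for the gene bodies minus the Airn start (11.3 points, with the bodies at 64.6%, a mean over Igf2r alone, Airn alone and the stretch of both, in which the Airn start and Airn alone could not be ordered); neither changed direction. With a coverage of at least 20 in every library, the Igf2r start was at 10.9%, the gene bodies at 68.1%, the excess of the Airn start over the Igf2r start at 42.2 points and that of the bodies over the Airn start at 15.0 points. That minimum keeps 22 cytosines of the Igf2r start, all inside the gene, and 0 of the 38 upstream. On the minus strand, where all 19 cytosines of that start are upstream, it was at 24.9% and the Airn start exceeded it by 27.8 points. Leaving out 1 library in turn gave 52.5% to 54.2% for the Airn start, 17.6% to 19.1% for the Igf2r start, and 64.2% to 64.98% for the bodies. The cytosines that differed between libraries were 57 of 269 on the counts as deposited (21.2%, background 25.4%), 39 of 117 with a coverage of at least 20 (33.3%, background 34.7%), 0 of 269 with the halved statistic (background 0.0867%) and 44 to 58 without 1 library (background 22.5% to 22.9%). Without libraries 1 and 9, the correlations with the mean autosomal level were 0.516 for the Airn start and 0.695 for the bodies. Depth limits the upstream Igf2r cytosines most, at a median of 18 reads. No paired analysis was possible because the library numbers of the table match no label.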

Other observations

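Far along Airn, 3 neighbouring cytosines on the minus strand (chr17:12810467-12810563), starting 69156 bp downstream of its start, were at 14.0% (6.32% to 18.4% over the libraries). The other 8 cytosines of the same stretch (chr17:12809879-12810199) were at 61.7% (57.8% to 66.6%). The lowest of the 3, position 12810510, was at 6.79% over 280 reads. They were the only cytosines of Airn alone under 20%, and were chosen after their values were seen.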
